A study of Rattus norvegicus with 10 samples.

Results

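The genes described are those of the cytosolic ribosomal proteins, the protein parts of the ribosomes that make cell protein outside mitochondria, in cultured cells of adult rat skull and limb bone. They were taken by symbol: every probe whose platform symbol starts with Rpl or Rps followed by a number, or is Rplp0, Rplp1, Rplp2 or Rpsa, without the Rps6k kinases. The rule found 67 genes, measured by 68 probes, of 13337 named genes and 22523 probes in all. By role, 35 are proteins of the large subunit, 23 of the small subunit and 3 of the stalk, and 6 are paralogues or relatives by symbol (Rpl3l, Rpl7l1, Rpl22l1, Rpl36al1, Rpl37l1 and Rps19bp1). The rule reads symbols only, though the family and its mention of Rps9 were proposed with earlier results of these arrays known.

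Skull vault and ulnar cells were compared on 10 Illumina rat BeadChips, 5 per site, from 5 male CD rats, an outbred stock; their age is not given in the labels. Cells released by the third collagenase digest of each bone were grown in serum-containing medium and harvested at passage 3 and 95% confluence, with no treatment. S-Bdc denotes the calvarial and L-Bdc the ulnar bone-derived cells, and each rat gave both cultures. The digest can also release osteocytes, osteoclasts, endothelial, neuronal and fat cells, so a difference in RNA per cell and a difference in the mix of cells cannot be told apart.

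A ribosome joins a small subunit, which reads the messenger RNA, to a large subunit, which links the amino acids and sends the new chain out through a tunnel. Each subunit holds its proteins in fixed proportion, and growing cells spend much of their messenger RNA on them. In mammals these messages begin at a run of pyrimidines, the terminal oligopyrimidine tract, through which growth signals acting via mTOR and Larp1 set how strongly they are translated. An array measures the amount of message and not its translation.

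The letters around the start sites are shown because they are the feature that the family is known to share. RefSeq promoter sequences (GRCr8) were found for 56 of the 67 genes, 55 by gene number and Rps9 by symbol only. The letters CTTTCC or CTCTTT, which can overlap, occurred on either strand within 20 bases of the annotated start in 25 of these 56 genes (44.6%) and in 1648 of all 27457 promoters (6%). Counted on the gene's own strand alone, they occurred in 25 of the 56 (44.6%) and in 874 of all (3.18%). In the full windows of 250 bases before and 50 after the start, CCGGAAG, searched on both strands, occurred in 17 of the 56 (30.4%) and in 2531 of all (9.22%), and AAGATGG in 8 (14.3%) and 2003 (7.3%). Below are the 40 bases before and 20 from the start of the genes that carry the results, 5′ to 3′ on the gene's strand, with CTTTCC or CTCTTT in capitals where they lie within 20 bases of the start. Rpl35a, chosen after its sequence was seen, is printed as an example of both runs meeting at the start.
Rpl35a, large subunit, chr11:81235002-81235061, minus strand: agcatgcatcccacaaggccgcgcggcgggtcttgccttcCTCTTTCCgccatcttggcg
Rpl5, large subunit, chr14:1995206-1995265, minus strand: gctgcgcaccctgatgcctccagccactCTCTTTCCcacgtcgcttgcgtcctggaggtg
Rps9, small subunit, chr1:74430418-74430477, minus strand: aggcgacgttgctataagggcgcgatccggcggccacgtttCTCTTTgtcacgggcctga
Rps12, small subunit, chr1:23500035-23500094, plus strand: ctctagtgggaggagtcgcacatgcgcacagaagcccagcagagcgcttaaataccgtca
Rpl22l1, paralogue, chr2:113683156-113683215, plus strand: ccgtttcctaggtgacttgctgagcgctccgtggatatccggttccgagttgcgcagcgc
Rpl22, its partner, chr5:168117921-168117980, plus strand: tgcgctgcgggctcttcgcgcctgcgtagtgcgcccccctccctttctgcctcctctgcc
The Rpl5 and Rps9 windows hold the searched letters, whereas those of Rps12, Rpl22l1 and Rpl22 do not. A match is a string of letters near an annotated start and was not tested as a functional tract.

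Levels are given as processed intensities, the authors' background-subtracted and normalised linear units, or as normalised log2 signal, obtained here from the raw intensities by normexp correction with an offset of 50 and quantile normalisation. The family was among the brightest on the arrays. Of the 67 genes, 62 were above background, taken as 8.514 processed units, on all 10 arrays, and 43 (64.2%) had a mean log2 signal of 12 or more, which only 308 of 22517 probes reached. The 68 probes, 0.302% of those on the array, carried 7.53 ± 0.152% of the processed signal of the calvarial arrays and 7.5 ± 0.158% of that of the ulnar arrays (SD, n = 5). The paired difference was 0.0246 percentage points, with an SD of 0.122. These intensities were already normalised, and the same values recur between arrays, so this share had little room to differ. In raw signal the shares were 6.76 ± 0.381% on calvarial and 6.49 ± 0.133% on ulnar arrays. Their paired difference was 0.275 percentage points, with an SD of 0.423. In ulnar rats 2 and 5 the largest raw signal of the array came from a ribosomal protein probe. Raw medians ran from 40.6 to 48.1 over the arrays.

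After quantile normalisation, the family as a whole differed little between the sites. The median of S-Bdc minus L-Bdc was 0.0147 on the log2 scale over the 67 genes, with an interquartile range of -0.0803 to 0.0786, against a median of -0.00147 over all 22517 probes. Within rats 1 to 5 the family median was -0.0366, 0.0378, 0.0269, -0.0406 and 0.0389, so it was below 0 in rats 1 and 4 and above 0 in the others. The difference was smaller than 0.25 in 64 of the 67 genes (95.5%), against 90.1% of all probes and 77.7% of the probes above background on all arrays. The median standard error was 0.0621, and for 64 genes the 95% interval lay within 0.5 either way. The exceptions were Rpl22l1, Rpl5 and Rpl31.

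In limma's paired fit, 3 of the 67 genes (4.48%) passed an adjusted p of 0.05, against 9.10% of all probes tested and 20% of those above background on all 10 arrays. Rps12 was higher in S-Bdc (1.49% of the family, 4.43% of all probes), and Rpl22l1 and Rpl5 were lower (2.99%, 4.68% of all). The same 3 genes had groups that did not overlap (7.0% of all probes). In 7 genes (10.4%) all 5 rats differed in the same direction, against 16.9% of all probes; these were Rpl22l1 and Rpl5, lower in S-Bdc, and Rps12, Rpl17, Rpl30, Rps23 and Rps3a, higher. Among the 308 probes with a mean of 12 or more, 41 (13.3%) passed, and 0 of the 43 ribosomal protein genes at that level did. At an unadjusted p of 0.05, 13 of the 67 genes passed (19.4%), against 18.8% of all probes, 6 of them higher and 7 lower in S-Bdc. That split depends on the normalisation: it was 20 higher and 5 lower with median scaling and 16 higher and 4 lower without normalisation. With the arrays scaled by their medians, 3 ribosomal protein genes were higher and 3 lower (8.96%, against 5.63% of all probes), and their median difference was 0.123 beside 0.111 in all probes with a mean of 12 or more. The p-values rest on how far the paired difference varied from rat to rat. Each probe has 4 residual degrees of freedom, before limma's moderation across probes.

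**Figure D1:**
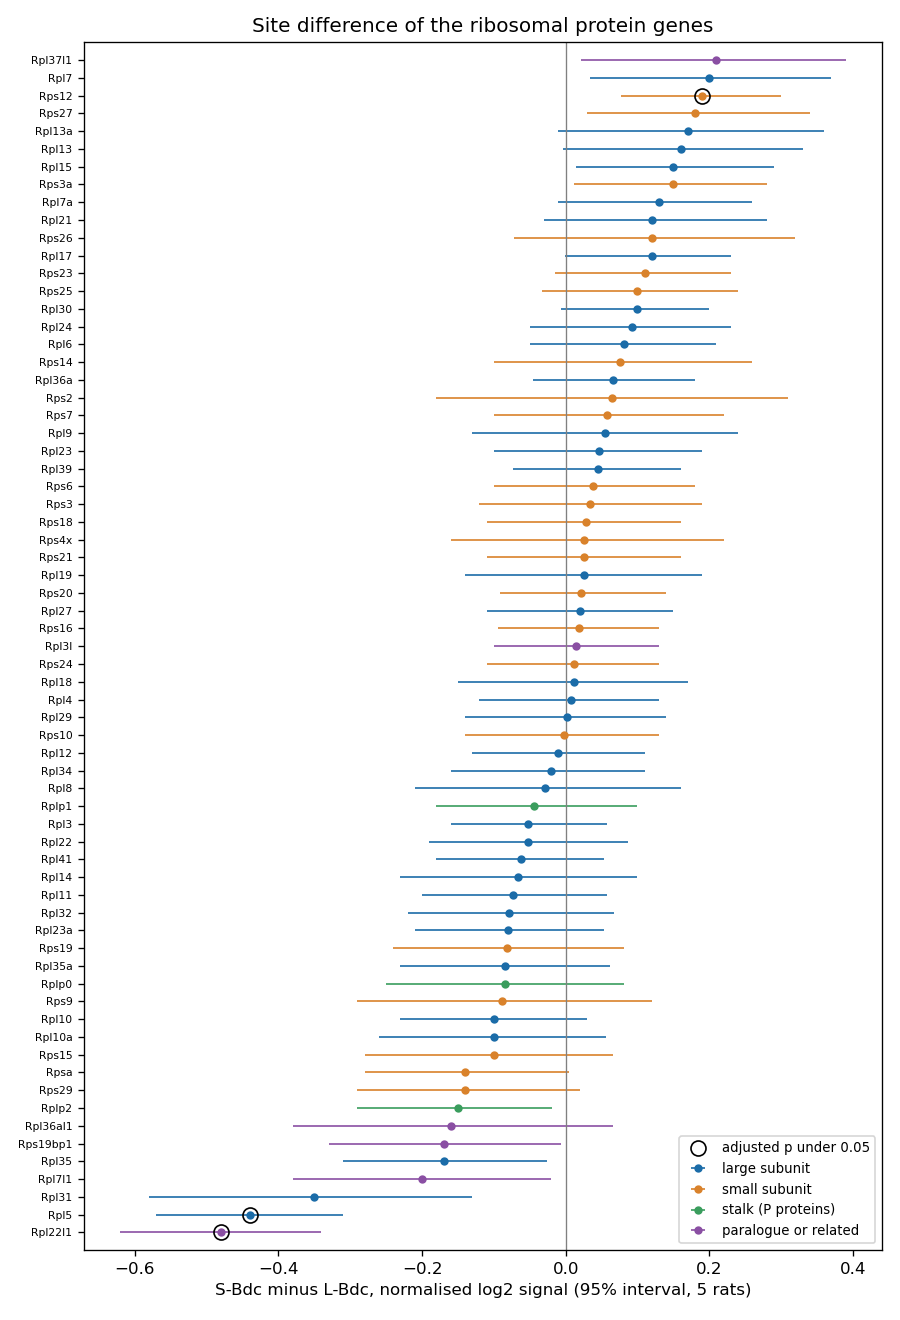
Difference between S-Bdc and L-Bdc in normalised log2 signal (horizontal axis) of each of the 67 ribosomal protein genes, ordered by difference. Points are fitted means over 5 rats with 95% intervals, colours give the role, and rings mark an adjusted p under 0.05; most points lie within 0.25 of 0, with Rpl22l1, Rpl5 and Rpl31 apart on the L-Bdc side.

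The largest difference belonged to Rpl22l1, a paralogue of the large subunit protein Rpl22, which in mouse represses it. Its normalised log2 signal in rats 1 to 5 was 6.84, 7.07, 7.07, 7.11 and 6.92 in S-Bdc and 7.41, 7.57, 7.30, 7.59 and 7.51 in L-Bdc. Every ulnar culture lay above every calvarial culture. The means were 7.0 ± 0.12 and 7.48 ± 0.12 (SD, n = 5), which differed by -0.48 ± 0.061 (SE), or 1.39-fold with L-Bdc higher (limma, adjusted p = 0.00111). In processed intensity, where no offset shrinks the ratio, the means were 67.3 ± 10.1 and 118 ± 14.8, a ratio of 1.76. The call was lost only with processed intensities floored at 16 (-0.82, adjusted p = 0.0695), of 16 other processings. Its partner Rpl22, named for that reason, ran from 12.85 to 13.12 in calvarial and from 12.88 to 13.14 in ulnar cultures, so the groups overlapped, and differed by -0.053 ± 0.062 (adjusted p = 0.771).

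Rpl5, which together with Rpl11 carries the smallest ribosomal RNA of the large subunit and can bind the p53 regulator Mdm2, was also lower in S-Bdc. In rats 1 to 5 its log2 signal was 8.69, 8.71, 8.75, 8.46 and 8.57 in S-Bdc and 9.05, 8.99, 9.19, 9.05 and 9.11 in L-Bdc. All ulnar cultures were above all calvarial cultures. The means of 8.64 ± 0.12 and 9.08 ± 0.07 differed by -0.44 ± 0.058, or 1.36-fold (limma, adjusted p = 0.00129). In processed units the means were 340 ± 32.8 and 483 ± 28.3, a ratio of 1.42. The Rpl5 probe was dim for the family, whose median log2 signal was 12.88. The call was lost with that floor (adjusted p = 0.0639) and without normalisation between arrays (0.069). The Rpl11 probe was above background on none of the arrays, from -7.62 to 3.349 processed units, so the partner of Rpl5 could not be compared.

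Rps12, a small subunit protein known in fruit fly for its part in cell competition, was higher in S-Bdc by a small margin. Its log2 signal in rats 1 to 5 was 11.95, 11.98, 11.92, 11.88 and 11.96 in S-Bdc and 11.77, 11.81, 11.67, 11.81 and 11.67 in L-Bdc. The lowest calvarial culture, 11.88, was above the highest ulnar culture, 11.81. The means of 11.94 ± 0.04 and 11.75 ± 0.07 differed by 0.19 ± 0.050, or 1.14-fold (limma, adjusted p = 0.045). The call was lost in 13 of 16 other processings, among them each fit without a rat, with adjusted p from 0.0186 to 0.33 over all of them.

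Rpl31, a protein near the exit of the tunnel, had the next largest difference but did not pass. Its log2 signal in rats 1 to 5 was 9.36, 9.99, 9.80, 9.84 and 10.14 in S-Bdc and 10.13, 10.19, 10.27, 10.22 and 10.08 in L-Bdc. It was lower in S-Bdc in 4 of 5 rats, and calvarial rat 5 lay above its ulnar partner. The difference was -0.35 ± 0.10 (95% interval -0.58 to -0.13; limma, adjusted p = 0.0588). It passed in 8 of 16 other processings, for example without rat 5, at -0.46 and an adjusted p of 0.0162.

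**Figure D2:**
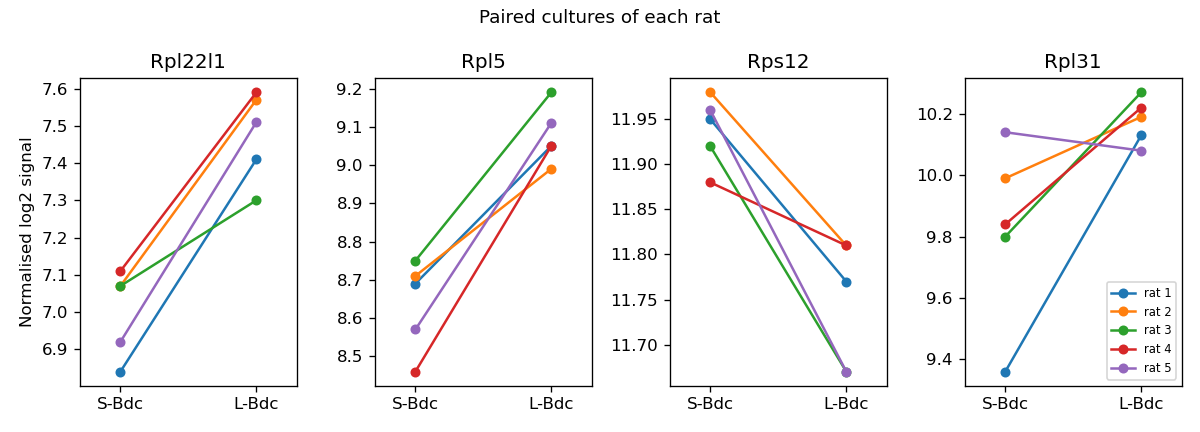
Normalised log2 signal (vertical axis, a separate scale per gene) of Rpl22l1, Rpl5, Rps12 and Rpl31 in the S-Bdc and L-Bdc cultures, with a line for each of the 5 rats. All lines rise to L-Bdc for Rpl22l1 and Rpl5 and fall for Rps12, while for Rpl31 rat 5 runs against the other rats.

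Among the other large subunit genes, Rpl7 ran from 10.97 to 11.40 (median 11.03) in calvarial and from 10.74 to 11.10 (median 10.91) in ulnar cultures, and differed by 0.20 ± 0.074 (limma, adjusted p = 0.159). The 35 large subunit genes had a median difference of 0.00734, with 0 higher and 1 lower (2.86%), beside 4.43% and 4.68% of all probes. At an unadjusted p of 0.05, 5 of them passed (14.3%), against 18.8% of all probes. Rpl17 and Rpl30, each higher in S-Bdc in all 5 rats, differed by 0.12 ± 0.052 and 0.10 ± 0.046 (limma, adjusted p = 0.274 and 0.305). Their smallest paired differences were 0.01 for Rpl17 in rat 2 and 0.05 for Rpl30 in rat 3.

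The 23 small subunit genes had a median difference of 0.0279, with 1 higher (4.35%) and 0 lower, beside the same shares of all probes. At an unadjusted p of 0.05 in limma's fit, 3 of them passed (13%), against 18.8% of all probes. Rps27, a zinc finger protein of the subunit, differed by 0.18 ± 0.069 (limma, adjusted p = 0.164), between 13.18 and 13.36 in calvarial and between 12.82 and 13.34 in ulnar cultures. Scaled by array medians instead of quantiles, the same gene differed by 0.30 and passed (adjusted p = 0.0386). Rps3a and Rps23, higher in S-Bdc in every rat, differed by 0.15 ± 0.060 and 0.11 ± 0.054 (limma, adjusted p = 0.219 and 0.353). Their smallest paired differences were near ties, 0.00 after rounding for Rps3a in rat 4 and 0.01 for Rps23 in rat 3. Rpsa, which as the laminin receptor also sits at the cell surface, lay between 13.14 and 13.34 in calvarial and between 13.24 and 13.49 in ulnar cultures and differed by -0.14 ± 0.063 (adjusted p = 0.287). Rps6, the classic substrate of the S6 kinases, differed by 0.038 ± 0.062 (adjusted p = 0.849).

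The stalk, made of Rplp0 with Rplp1 and Rplp2, draws elongation factors to the ribosome. None of its 3 genes passed. Rplp0 differed by -0.085 ± 0.074, Rplp1 by -0.044 ± 0.062 and Rplp2 by -0.15 ± 0.059 (limma, adjusted p = 0.66, 0.815 and 0.187). Rplp0 spanned 13.43 to 13.66 in calvarial and 13.45 to 13.73 in ulnar cultures, so the groups overlapped. The Rplp2 probe was dim, between 6.28 and 6.59 over the 10 arrays.

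Of the other paralogues and relatives, 0 passed. At an unadjusted p of 0.05 in limma's fit, 4 of the 6 passed, Rpl22l1 included (66.7%), against 18.8% of all probes. These were Rpl37l1, higher in S-Bdc, and Rpl22l1, Rpl7l1 and Rps19bp1, lower. Rpl37l1 was at 10.51, 10.41, 10.51, 10.36 and 10.47 in S-Bdc and at 10.64, 10.31, 10.15, 10.13 and 9.98 in L-Bdc. It was higher in S-Bdc in all rats but rat 1, with a difference of 0.21 ± 0.082 (limma, adjusted p = 0.199), and without rat 1 it differed by 0.29 and passed (adjusted p = 0.0243). Rpl7l1, a relative of Rpl7, differed by -0.20 ± 0.081, Rps19bp1, which binds Rps19 and the deacetylase Sirt1 and is no ribosomal protein itself, by -0.17 ± 0.071, and Rpl36al1 by -0.16 ± 0.10 (adjusted p = 0.2, 0.24 and 0.494). Rpl3l, the striated muscle form of Rpl3, differed by 0.015 ± 0.053 (adjusted p = 0.941) and stood between 6.61 and 6.85 on all 10 arrays.

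For 5 genes the probe was not above background on every array. Rpl11 and Rpl34 were above it on 0 arrays, Rpl12 on 2, Rps19 on 3 and Rpl36a on 7. Their processed values reached at most 3.349 for Rpl11, 7.259 for Rpl34, 11.82 for Rpl12, 20.07 for Rps19 and 18.84 for Rpl36a. These are readings of the probes near background and give no level of the message.

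The other question was which genes varied between the rats in the same way at both sites. The fit gives an F test of the rat term, for which the residual is the disagreement of the sites. Over all probes 50 of 22517 (0.222%) passed, among the probes above background on all arrays 0.418%, and among those with a mean of 12 or more 0.649%. In the ribosomal protein genes 2 of 67 (2.99%) passed, Rps9 and Rpl30. Rps9 was singled out for this pattern beforehand, so its values are a description, and without it the count was 1 of 66 (1.52%). The median range between rat means was 0.218 in the family, against 0.156 over all probes and 0.214 in those above background on all arrays.

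Rps9 is a small subunit protein whose bacterial relative takes part in the accuracy of decoding, and it was the only member with a pair of probes. On the dimmer probe, the processed intensity in rats 1 to 5 was 52.13, 3063, 2840, 2548 and 65.49 in S-Bdc and 65.65, 2790, 2491, 2723 and 118.5 in L-Bdc. Rats 1 and 5 were low and rats 2, 3 and 4 high at both sites, with nothing between 118.5 and 2491. The brighter probe gave 747.2, 5954, 5516, 5090 and 932.9 in S-Bdc and 1001, 5635, 6675, 6016 and 939 in L-Bdc. The same rats were low, again at both sites, with a gap from 1001 to 5090. From the lowest to the highest culture the dimmer probe spanned 58.8-fold and the brighter one 8.93-fold.

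The raw signals of the dimmer Rps9 probe, before any normalisation, split the rats in the same way. They were 95.8, 2465.7, 3010.4, 3005.4 and 100.4 in S-Bdc and 91.3, 2548.3, 2429.6, 2882.8 and 172.7 in L-Bdc. In normalised log2 signal the rat means were 6.90, 11.54, 11.40, 11.39 and 7.23, a range of 4.63 or 24.8-fold, the largest of all 22517 probes. No site difference was detected for Rps9 (-0.088 ± 0.091, 95% interval -0.29 to 0.12; limma, adjusted p = 0.732). The platform's gene number for these probes is absent from the current rat gene table, where Rps9 stands under another number, and the brighter probe had no raw row, so the fitted values are those of the dimmer probe. Probe sequences were not available, so the probes could not be checked for sequence differences between the rats. The readings are therefore signals of these probes and may not give the level of the message. What sets these rats apart was not tested.

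Rpl30, which in yeast controls the splicing of its own message, varied less and through rat 1. Its processed intensity in rats 1 to 5 was 3708, 6051, 5551, 5798 and 5540 in S-Bdc and 3549, 5445, 5359, 5381 and 5110 in L-Bdc. Both cultures of rat 1 were below all others. The rat means were 11.84, 12.49, 12.42, 12.45 and 12.38 in log2 signal, a range of 0.66 or 1.58-fold (limma, F = 28, adjusted p = 0.0196). Without rat 1 the adjusted p was 0.965, without rat 3 0.0524 and without rat 4 0.0593. The call was lost in 8 of 15 other processings, these 3 fits among them, and the range rests on rat 1. By the size of the range Rpl30 ranked 228 of 22517 probes.

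No other member passed the test between rats. The next by p were Rps6, with a range of 0.41 (adjusted p = 0.569), and Rps23, with 0.33 (limma, adjusted p = 0.687). For Rps6, the rat mean was 13.53 in rat 5 and between 13.12 and 13.20 in the other rats. Rpl41, Rpl10a, Rpl36a, Rpl7, Rpl4 and Rps21 had ranges of 0.26 to 0.33 with adjusted p from 0.751 to 0.918. Rpl22l1, Rpl5 and Rps12 did not pass between rats, and Rps9 and Rpl30 did not pass between sites.

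**Figure D3:**
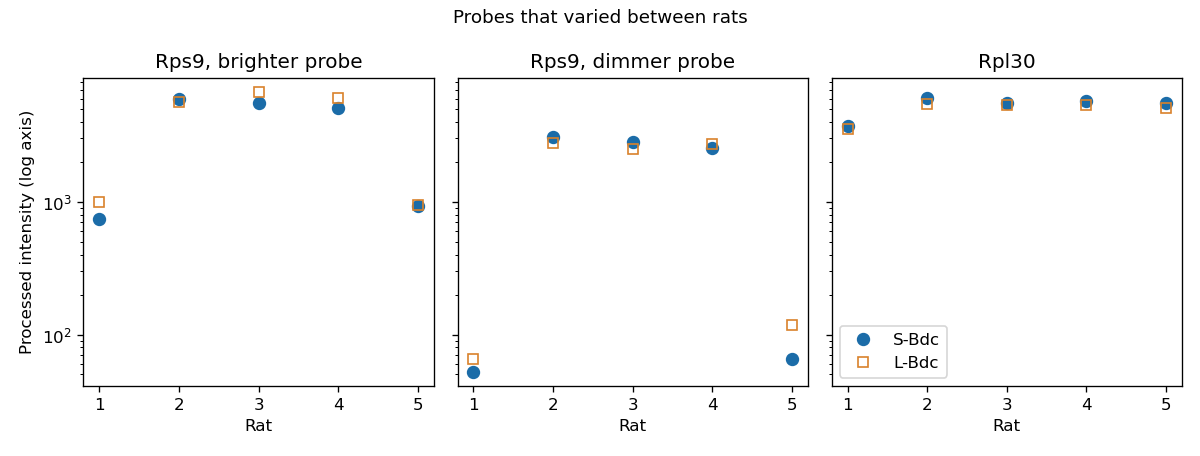
Processed intensity (vertical log axis) of both Rps9 probes and of Rpl30 in each of the 5 rats (horizontal axis), with a filled circle for S-Bdc and an open square for L-Bdc. Both cultures of rats 1 and 5 are low on both Rps9 probes, and both cultures of rat 1 are lowest for Rpl30.

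**Figure D4:**
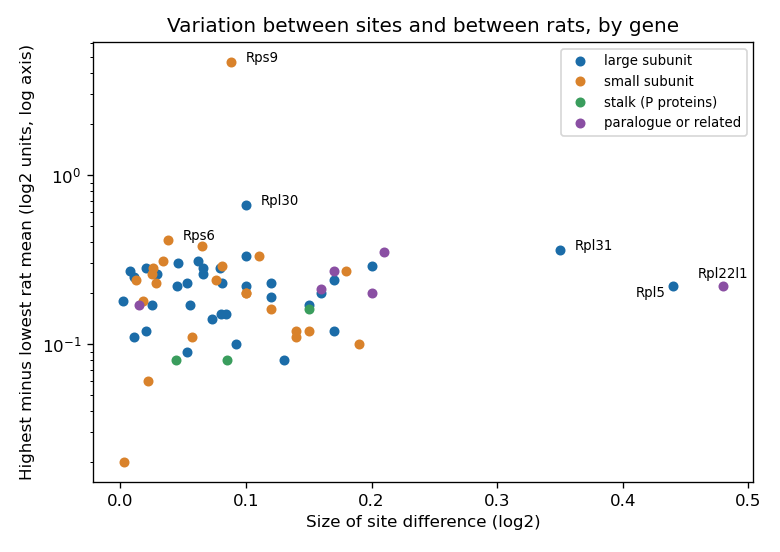
Size of the site difference (horizontal axis, log2) against the range between the 5 rat means (vertical log axis, in log2 units) for the 67 genes, coloured by role. Rps9, at 4.63, and Rpl30, at 0.66, stand above the rest, and Rpl22l1, Rpl5 and Rpl31 stand to the right.

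Other genes of translation were set beside the family, from lists of elongation factors and further genes with pyrimidine tracts, of initiation factors, of regulators and of mitochondrial ribosomal proteins. Of 12 measured elongation and pyrimidine-tract genes, 0 were higher and 2 lower in S-Bdc, with a median difference of 0.0307. That is 16.7% passing, beside 9.10% of all probes and 20% of those above background on all 10 arrays. Eef1d, a subunit of the factor that reloads Eef1a1, differed by -0.31 ± 0.055, and the RNA-binding Hnrnpa1 by -0.39 ± 0.10 (limma, adjusted p = 0.00657 and 0.0356). Eef1d lost its call in 4 of 16 other processings, at an adjusted p of 0.193 without normalisation, 0.0975 with median scaling, 0.0608 with an offset of 16 and 0.0843 with the floor. Hnrnpa1 was lower in 4 of 5 rats and lost its call in 7, among them the fits without rat 3, 4 or 5. Npm1, a nucleolar chaperone, differed by -0.20 and the filament protein Vim by 0.11, neither past the threshold. Eef2, which moves the ribosome along the message, and Eef1a1, which brings in the loaded transfer RNA, differed by 0.086 ± 0.048 and 0.063 ± 0.048 (adjusted p = 0.417 and 0.599).

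Of 24 measured initiation factors 7 (29.2%) passed, 1 higher and 6 lower in S-Bdc, beside 9.10% of all probes and 20% of those above background, with a list median of 0.0102. Eif4a1, the helicase of cap-dependent initiation, differed by -0.26 ± 0.053 and Eif5a, which relieves stalled ribosomes, by -0.30 ± 0.066 (limma, adjusted p = 0.013 and 0.0196). Both were lower in S-Bdc in all 5 rats. Eif3d, a cap-binding subunit of Eif3, differed by -0.25 ± 0.061 and the cap-binding protein Eif4e by -0.31 ± 0.075 (adjusted p = 0.0294 and 0.0318). Eif4b, which stimulates the helicase, was the member that was higher, by 0.26 ± 0.065 (adjusted p = 0.0326). Over the lists together, with 12, 24, 16 and 59 measured genes, 2 genes were higher and 15 lower. Of all probes 4.43% were higher and 4.68% lower, and of those above background on all 10 arrays 9.48% and 10.5%. Without rat 3 the counts of higher and lower list genes were 1 and 6. Without rat 4 they were 3 and 8, and without rat 5 they were 1 and 8. With median scaling they were 1 and 4. The share of all probes passing also fell, from 9.1% to 5.88%, 6.29% and 7.03% without rats 3, 4 and 5. With median scaling it was 5.63%. Of 16 other processings, Eif4a1 lost its call in 7, among them without rat 3 or 4, Eif5a in 6, among them without rat 2 or 5, Eif3d in 9, among them without rat 2, 3 or 5, and Eif4e in 8, among them without each of rats 2 to 5. Eif4b lost its call in 10 of 16 other processings, among them the fits without rat 1, 2, 3 or 5. Myc, described next, kept its call in all 16 other processings.

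Of 16 regulators 1 was higher and 1 lower, with a median of -0.0348. Together they are 12.5% of the list, beside 9.10% of all probes and 20% of those above background on all 10 arrays. Myc, a transcription factor that drives genes of ribosome synthesis, stood at means of 8.88 (S-Bdc) and 9.72 (L-Bdc) and differed by -0.84 ± 0.060, in the same direction in all 5 rats (limma, adjusted p = 5.15e-05). Eef2k, the kinase that inhibits Eef2, differed by 0.27 ± 0.049, higher in S-Bdc in all 5 rats (adjusted p = 0.00829), and lost its call without normalisation and with the floor (highest 0.0684). Of 59 mitochondrial ribosomal protein genes 0 were higher and 6 (10.2%) lower in S-Bdc, with a median of -0.0661. Of all probes 4.43% were higher and 4.68% lower, and of those above background on all 10 arrays 9.48% and 10.5%. The share of lower genes was thus near that of the probes above background. Mrps11 differed by -0.41 ± 0.069 and Mrps10 by -0.35 ± 0.066, both lower in all 5 rats (adjusted p = 0.00482 and 0.00901). Mrps11 lost its call in 2 of 16 other processings (0.0594 without normalisation, 0.125 with the floor of 16). Mrps10 lost it in 4, at an adjusted p of 0.573 without the rat block, 0.175 without normalisation, 0.0978 with median scaling and 0.13 with the floor. Mrps12 and Mrps26 differed by -0.36 ± 0.079 and -0.32 ± 0.073 (adjusted p = 0.0198 and 0.0229), and each lost its call in 4 other processings, among them the fit without rat 5 and, for Mrps26, those without rat 3 or 4. Between rats 2 of these 59 genes (3.39%) passed, Mrpl18 and Mrps10 (limma, adjusted p = 4.09e-07 and 0.00343), beside 0.222% of all probes. Mrpl18 was named after its value was seen. Of 15 other processings, the call of Mrpl18 between rats was lost in 1 (0.0865 with the floor) and that of Mrps10 in 3 (0.134 without normalisation, 0.0547 with median scaling, 0.377 with the floor).

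The labelled cell type was set against its markers. All 8 measured osteoblast genes were above background on some array, and their summed processed intensity was 25000 to 29400 on calvarial and 30600 to 35200 on ulnar arrays. Of these genes 1 was higher and 1 lower in S-Bdc, beside 4.43% and 4.68% of all probes. A sum of linear intensities weighs the brightest genes most, so it does not give the direction of each gene. Lists of other cell types each held some members above background on at least 1 array. These were 2 of 5 osteoclast genes, 2 of 4 monocyte and macrophage genes, 2 of 4 endothelial, 2 of 4 adipocyte, 3 of 5 neuronal, 3 of 6 muscle and 2 of 3 cartilage genes. The osteoclast list summed to 1480 to 2310 on calvarial and 1810 to 2280 on ulnar arrays, and 1 of its genes was lower in S-Bdc. The monocyte list summed to 293 to 403 and 306 to 566, and the adipocyte list to 129 to 342 and 66.5 to 268, for calvarial and ulnar arrays. On the calvarial arrays the endothelial, neuronal, muscle and cartilage lists summed to 14.1 to 25.7, 29.3 to 43.3, 35.2 to 60.4 and 24.2 to 47.2. On the ulnar arrays these sums were 11.6 to 22.3, 26.9 to 52.5, 33 to 93.8 and 37 to 50.7. Not above background on any array were Atp6v0d2, Oscar and Calcr (osteoclast), Aif1 and Ptprc (monocyte), Vwf and Cdh5 (endothelium), Adipoq and Lep (fat cells), Nefl and Syp (neurons), Myog, Ckm and Actn2 (muscle) and Col2a1 (cartilage). The part of the cell mix in the differences given here was not tested.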

How the data were processed

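Total RNA of 10 cultures (5 rats, both sites) was labelled with biotin and hybridised to Illumina RatRef-12 BeadChips by the authors. The deposited raw table holds average bead intensity per probe, exported by the authors from BeadStudio without normalisation. The deposited value table holds processed intensity, which can be negative after background subtraction; its settings are not given in the sources used here. Since the tables name their rows differently, each raw row was paired with the value row of the most similar rank profile. Each of 22517 raw rows found a partner among 22523 value rows, mutually. The worst pair was 0.264% of ranks apart, and for every raw row the runner-up was at least 6.35 times farther than the partner. 6 value rows, among them the brighter Rps9 probe, had no raw row. Gene names are the platform's.

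Raw intensities were corrected by normexp (offset 50), logged to base 2 (log2) and quantile normalised with limma 3.58.1 under R 4.3.3. A model with rat and site was fitted by lmFit and eBayes to all 22517 probes, and p-values, two-sided for site, received Benjamini-Hochberg adjustment across all of them, at a threshold of 0.05. The log2 scale with this offset understates differences of dim probes. Each gene was represented by its brightest fitted probe. The background limit of 8.514 units is the 95th percentile of the processed values at or below 0, mirrored. The number of arrays limits the precision. The rat block rests on the labels, where both cultures of a number are from the same animal. Same-rat cultures deviated from their site's means with correlations, for rats 1 to 5, of 0.0597, 0.211, 0.25, 0.176 and 0.129.

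The members and all lists were chosen with earlier results of these data known. The text names members that passed by site, the 4 largest differences each way, the 10 with the lowest p between rats, Rps9, the paralogues, the stalk genes and Rpsa, members never above background, and up to 4 genes of each further list with the lowest p. Values had been seen when Rpl17, Rpl22, Rps3a, Rpl35a, Eif4b, Eef2 and Eef1a1 were added. The calculations were tested on simulated data. Alternatives were other normalisations, background corrections, filters and variance models, the processed intensities, a fit without the rat block and fits without each rat. The counts of other processings also include a fit of every member probe on its own. Since each member had a single fitted probe, that fit equalled the main one and could change no call. The study's BeadStudio difference score was not computed.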

Additional observations from a re-analysis of the deposited data

Results flagged for a closer look

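In 6 of 134 groups of 5 cultures (67 genes, both sites), a single culture lay far from the rest by Dixon's criterion at its 95% level, where chance gives about 1 in 20. These are normalised log2 signals. Rpl30 was low in rat 1 at both sites, at 11.87 in S-Bdc, where the next culture was at 12.44, and at 11.81 in L-Bdc, where it was at 12.32. Rps6 was high in ulnar rat 5, at 13.62 against 13.17 for the next, and its calvarial partner, at 13.44, was also the highest of its site. Rpl13a was high in calvarial rat 5, at 12.21 against 11.92. Rpl36al1 was low in calvarial rat 1, at 11.55 against 11.99, which enters its site difference of -0.16. Rps14 was low in calvarial rat 3, at 13.27 against 13.38. Rpl13a and Rps14 are named here because of these values. What sets these cultures apart was not tested.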

How the results depend on the processing

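Counts below are genes passing limma's adjusted p of 0.05. The fit without the replicate block gave the same 1 higher and 2 lower ribosomal protein genes and changed none of these calls, with a median of 0.0147 and 2 higher and 12 lower genes in the translation lists, beside 2 and 15 with the block; Hnrnpa1 and Mrps10 lost their calls. With no normalisation between arrays, 2 ribosomal protein genes were higher, their median was 0.127, 1 passed between rats, and the translation lists had 0 higher (8 at an unadjusted p of 0.05) and 3 lower. With median scaling these values were 3, 0.123, 1, 1 and 4. Under both scalings bright probes moved together: probes with a mean of 12 or more had a median of 0.115 and 0.111, and all probes 0.00328 and -0.00075. The share of higher calls in the family therefore depends on this choice. The count of higher ribosomal protein genes was 0 with no background correction (3 at an unadjusted p), an offset of 16 (0), processed intensities with a floor of 16 (2), processed intensities plus 50 (5), probes above background on at least 3 arrays (4) and eBayes with trend and robust (0). With the floor, 0 were lower (2 unadjusted), 0 passed between rats (4 unadjusted) and the lists had 0 higher (8 unadjusted) and 1 lower. By site, the floor passed only 0.906% of all probes and no normalisation 3.86%, beside 9.1% in the main fit. The share was 5.63% with median scaling, 9.66% with no background correction and 8.66% with the offset of 16. For the processed intensities plus 50 it was 9.69%, and with the trend fit 8.94%. Among probes above background on at least 3 arrays 16.7% passed. The offset of 16 and the trend fit left 1 gene between rats. The lists had 1 higher without background correction, with the offset of 16 (8 lower) and with the trend fit. Without each rat in turn the family had 0 to 1 higher, 2 to 3 lower, a median from -0.00539 to 0.0193 and 1 to 2 genes between rats, and the lists 1 to 3 higher and 6 to 15 lower. As raw signal the family's share was 6.76% (S-Bdc) and 6.49% (L-Bdc). Rpl22l1 passed in every alternative but the floor (-0.82, adjusted p = 0.0695), and Rpl5 in all but the floor (0.0639) and no normalisation (0.069). The causes were not tested. Signal over background limits what Rpl11, Rpl34, Rpl12, Rps19 and Rpl36a can show.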

Other observations

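Probes that followed Rps9 across the arrays were looked up after its values were seen. Over the 10 arrays, which share 5 rats, 15 of the other probes had a Pearson correlation of at least 0.9 in size with the dimmer Rps9 probe, given as a description. Of these, the one with the widest range between rats has no symbol on the platform (ILMN_1365113). Its rat means were 7.76, 12.20, 12.30, 12.21 and 8.10 in normalised log2 signal for rats 1 to 5, with a correlation of 0.998. Hmgn1, a nucleosome-binding protein, had rat means of 9.22, 11.77, 10.99, 11.80 and 9.08 and a correlation of 0.936. The chemokine Ccl11 had 7.13, 9.59, 9.15, 10.08 and 7.33, with a correlation of 0.909. The unnamed probe ILMN_1358480 ran the other way, at 9.06, 6.52, 6.49, 6.55 and 8.32, with a correlation of -0.975. In these rat means, as for Rps9, rats 1 and 5 lay together and apart from rats 2, 3 and 4. The probes were chosen by their correlation with Rps9, so this shared split follows from the choice and is no separate finding.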
